A study of Homo sapiens with 12 samples.

Results

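The genes described are 10 interferon-stimulated effectors, chosen by symbol from a table of raw counts: ISG15, IFI6, IFI27, IFI35, IFI44, IFITM1, IFITM2, IFITM3, BST2 and SP110. They were 10 of 26995 genes with a symbol, and 8 of the 10 passed the expression filter. RNA was sequenced from BT549, an established triple-negative breast cancer cell line grown in RPMI with serum. All cells received siRNA: a non-targeting pool in the control arm, or the pools against FOSL1 and JUN together in the knockdown arm. FOSL1 encodes FRA-1, which pairs with JUN in the AP-1 transcription factor. Each arm was treated for 48 h with DMSO, the solvent, or with olaparib, an inhibitor of the DNA repair enzyme PARP, and each of the 4 groups held 3 libraries. The series was designed to profile this line under olaparib, AP-1 knockdown or both. The labels give neither the olaparib dose nor the amount of siRNA, so loss of the 2 targets and a response to a different siRNA mixture cannot be told apart here. They also do not say that the 3 libraries of a group came from separate cultures, so the p-values measure only the spread between these libraries.

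Type I interferons bind a receptor that activates the kinases JAK1 and TYK2, which phosphorylate transcription factors of the STAT family. Joined by IRF9, these factors enter the nucleus and bind the interferon-stimulated response element (ISRE), a short DNA motif near the start of many antiviral genes. The proteins made in this way act at different steps of infection: IFITM proteins at membrane fusion, BST2 at virus release, and ISG15 by being attached to other proteins.

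The promoters are shown because they are the sequences through which interferon factors reach these genes. RefSeq (GRCh38.p14) gave a promoter window, from 250 bases before to 50 after the start, for 9 of the 10 genes. Both strands were searched for the ISRE letters, GAAA, any 2 bases and GAAA again. These letters stood in the windows of 7 of the 9 (ISG15, IFI6, IFI27, IFI44, IFITM1, IFITM3 and BST2) and in 3.57% of 35116 windows over all genes. The windows of IFI35 and SP110 did not hold them. The letters of the GAS element TTCNNNGAA, bound by pairs of STAT proteins, were in 5 of the 9 windows (BST2, IFI27, IFI35, IFITM1 and SP110) against 7.66% of all windows. Matches of the 2 motifs overlapped in the windows of BST2, IFI27 and IFITM1. The AP-1 letters TGANTCA were in 0 of the 9, against 7.71% of all windows. A gene counts as matched if the window of any of its listed starts is. A match is a description of letters, and its absence from a window says nothing about binding elsewhere. Below, 180 bases of 7 of these promoters, from 170 before the start to 10 after it, run 5′ to 3′ on the gene's own strand, with ISRE letters on either strand in capitals. IFI35 is included as a gene of the set without a match.
ISG15 (chr1:1013327-1013506, plus strand): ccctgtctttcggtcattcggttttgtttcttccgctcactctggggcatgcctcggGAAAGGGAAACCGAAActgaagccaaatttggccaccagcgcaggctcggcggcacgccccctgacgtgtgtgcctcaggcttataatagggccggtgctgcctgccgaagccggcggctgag
IFITM3 (chr11:320851-321030, minus strand): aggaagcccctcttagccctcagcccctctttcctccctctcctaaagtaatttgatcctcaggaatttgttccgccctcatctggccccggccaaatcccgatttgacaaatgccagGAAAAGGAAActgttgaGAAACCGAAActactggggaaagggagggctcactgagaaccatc
IFITM1 (chr11:313870-314049, plus strand): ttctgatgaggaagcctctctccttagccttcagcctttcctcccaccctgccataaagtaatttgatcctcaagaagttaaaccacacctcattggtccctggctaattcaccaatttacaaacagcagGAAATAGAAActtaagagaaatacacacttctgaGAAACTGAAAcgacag
BST2 (chr19:17405621-17405800, minus strand): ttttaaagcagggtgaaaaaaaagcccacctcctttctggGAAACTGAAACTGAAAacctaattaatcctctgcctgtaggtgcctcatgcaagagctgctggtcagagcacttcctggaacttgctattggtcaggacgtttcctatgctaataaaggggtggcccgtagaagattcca
IFI44 (chr1:78649619-78649798, plus strand): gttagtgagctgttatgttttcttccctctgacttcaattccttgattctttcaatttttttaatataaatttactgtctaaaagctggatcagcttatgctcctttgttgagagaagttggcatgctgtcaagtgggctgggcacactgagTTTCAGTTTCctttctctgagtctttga
IFI6 (chr1:27672183-27672362, minus strand): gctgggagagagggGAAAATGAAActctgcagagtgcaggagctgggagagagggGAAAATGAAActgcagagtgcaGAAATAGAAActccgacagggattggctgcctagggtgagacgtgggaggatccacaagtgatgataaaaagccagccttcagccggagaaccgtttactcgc
IFI35 (chr17:43006614-43006793, plus strand): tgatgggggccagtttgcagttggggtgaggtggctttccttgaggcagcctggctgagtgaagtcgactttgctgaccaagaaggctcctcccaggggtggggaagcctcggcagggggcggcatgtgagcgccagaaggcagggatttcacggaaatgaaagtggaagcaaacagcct

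**Figure D1:**
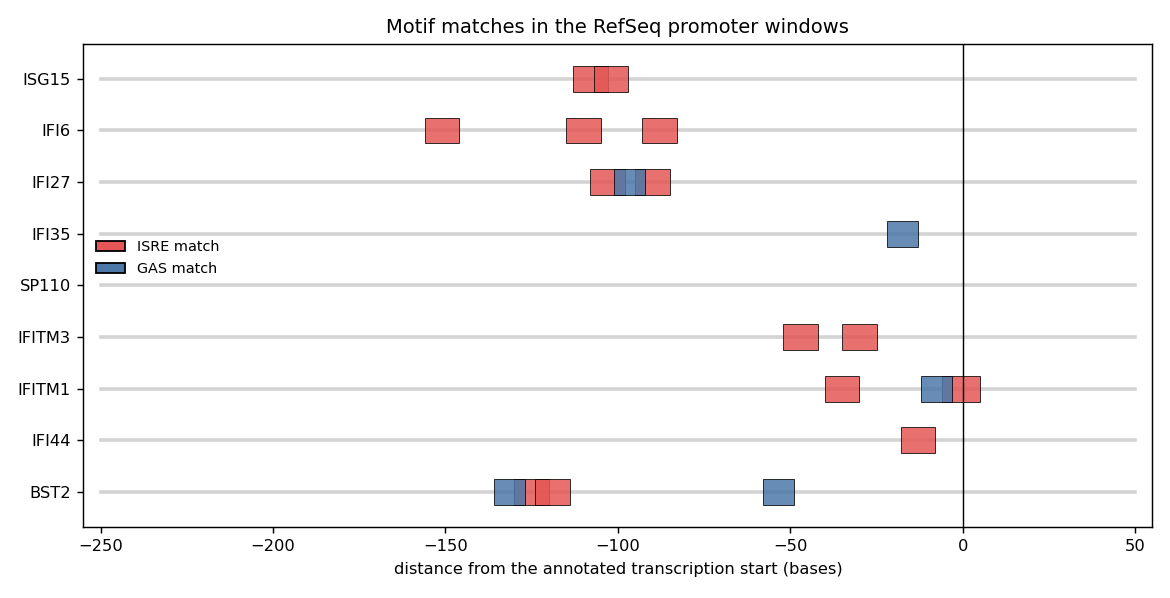
Positions of ISRE matches (red) and GAS matches (blue) in the promoter windows of 9 effectors; the x axis is the distance from the annotated transcription start in bases, and for genes with more than 1 listed start the first is drawn, which leaves out the GAS match of SP110 at its other start. ISRE matches stand in 7 of the 9 windows, and those of IFI44, IFITM1 and IFITM3 lie nearest the start.

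In BST2 and ISG15 a pair of ISRE matches shared bases. The windows of IFI6 held 3 separate matches. Tested genes whose window held the ISRE letters were called higher after knockdown in DMSO in 20.8% of 365 cases, against 13.9% of 9491 genes without them. In olaparib the shares were 29.6% and 18.2%. These shares are descriptions of all tested genes, and no test was made of them. They include genes such as BST2 that passed the filter only through knockdown libraries, so that their rise was a condition of being counted.

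Library totals ran from 13762783 to 39714918 counts. FOSL1 RNA fell from a mean of 71.6 to 26.8 CPM (counts scaled to the library total) in DMSO and from 126 to 21.1 CPM in olaparib, and JUN RNA from 163 to 62.4 and from 163 to 42.1 CPM (largest adjusted p = 7.95e-08). Mesenchymal markers (VIM, FN1, CDH2, ZEB1, SPARC and CD44) were abundant, and their sum was lower after knockdown without overlap: 5555 to 5748 CPM in control and 5013 to 5233 CPM in knockdown cells with DMSO, and 7537 to 7662 against 5649 to 5887 CPM with olaparib. VIM and ZEB1 fell in both comparisons, FN1 fell in olaparib (log2 fold change -0.89) and SPARC rose in both. The 6 luminal or epithelial markers summed to 1.53 to 2.16 CPM in control and 2.58 to 3.14 CPM in knockdown cells with DMSO, without overlap, and to 2.25 to 2.99 and 2.83 to 3.21 CPM with olaparib, with PGR at 0 counts in all libraries. CDH1 was called higher in DMSO (adjusted p = 0.0484) but passed the filter only through the knockdown libraries with olaparib. The part of these markers in the results below was not tested. Of 7 immune markers, CLEC4C, LILRA4 and NKG7 were at 0, and the 7 together stayed between 1.09 and 2.82 CPM. CDH5 and VWF, endothelial markers, were also at 0. The third library of knockdown cells with olaparib stood apart on the third principal component, which held 6.77% of the variance, so results that turn on it are given with and without it.

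After knockdown in DMSO, 5 of the 10 effectors rose: IFI44, BST2, IFITM1, IFITM3 and IFI35, by between 1.40-fold and 9.79-fold. ISG15, IFI6 and SP110 did not pass the threshold (adjusted p below 0.05 in the edgeR quasi-likelihood test over all 12118 tested genes), and IFI27 and IFITM2 were too low to be tested. In olaparib 7 rose, now with IFI6 and SP110, and ISG15 again did not pass. None was called lower in either comparison. Among all tested genes, 29.9% were called after knockdown in DMSO, 14.7% higher and 15.2% lower, and 38.3% in olaparib, 19.0% higher and 19.3% lower. BST2 passed the filter only through its knockdown libraries, so its rise was a condition of being tested. The median log2 fold change of the 8 that passed, BST2 included, was 0.64 in DMSO and 0.56 in olaparib, beside 0.00 and 0.01 over all tested genes. Both comparisons are between libraries of bulk RNA, in which more cells with a transcript and more transcript per cell cannot be told apart.

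**Figure D2:**
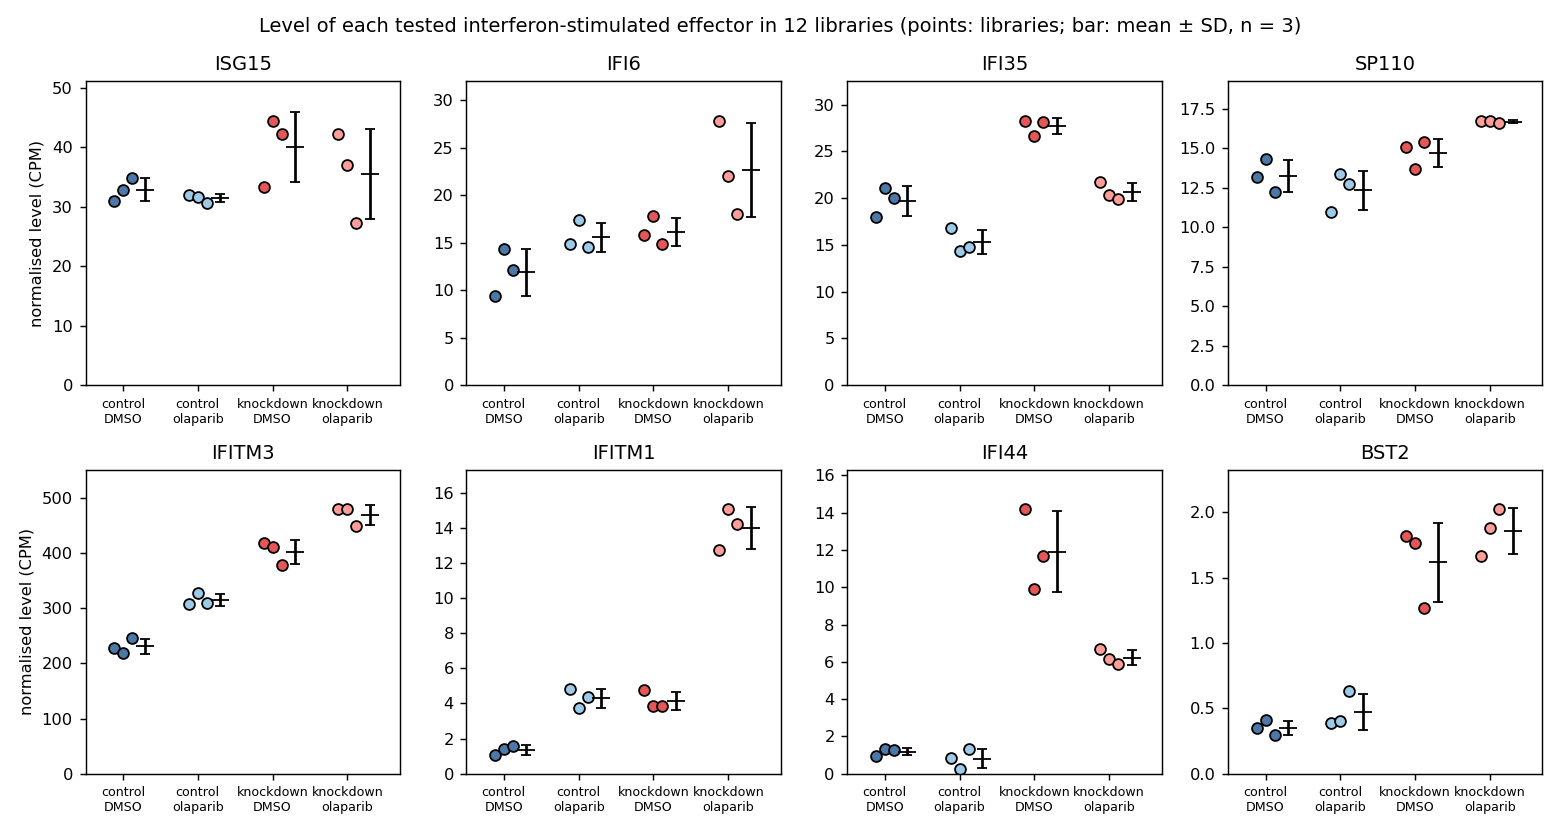
Normalised level (CPM, linear axis from 0, a different scale in each panel) of the 8 tested effectors in 12 libraries; points are libraries, the bar beside each group is the mean ± SD of 3 libraries, blue marks control siRNA and red the FOSL1 and JUN knockdown. ISG15 stays between 27.2 and 44.4 CPM across all groups, while IFI44 is below 1.35 CPM in every control library and above 5.86 CPM in every knockdown library.

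ISG15 (Entrez gene 9636) encodes a ubiquitin-like protein that is secreted or joined to newly made proteins. Its level was 31.0, 32.7 and 34.8 CPM in control DMSO libraries and 33.3, 44.4 and 42.2 CPM in knockdown DMSO libraries. With olaparib the control libraries held 32.0, 31.6 and 30.6 CPM and the knockdown libraries 42.2, 37.0 and 27.2 CPM. The groups overlapped in both comparisons, and the third knockdown library with olaparib was the lowest of all 12. Knockdown libraries were more spread: the coefficient of variation was 14.7% with DMSO and 21.4% with olaparib, against 5.85% and 2.31% in control cells. The log2 fold change was 0.29 (SE 0.14, adjusted p = 0.130) in DMSO, a 1.22-fold difference with a 95% interval from 0.998 to 1.5. In olaparib it was 0.18 (SE 0.14, adjusted p = 0.316), or 1.14-fold with an interval from 0.925 to 1.40. These intervals leave room for a rise of up to 1.5-fold, and do not show that ISG15 was unaffected. Without the third knockdown library with olaparib, ISG15 passed in both comparisons, with log2 fold changes of 0.29 (adjusted p = 0.0151) in DMSO and 0.33 (adjusted p = 0.0127) in olaparib. It also passed in DMSO without the first knockdown library with DMSO (0.40, adjusted p = 0.0282) and when only the 2 groups compared were fitted (adjusted p = 0.0310).

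The genes that attach ISG15 to proteins, or remove it, were read from a list. Of 8 listed genes 7 were tested, and 5 rose and 2 fell in each knockdown comparison. Among all tested genes, 14.7% were called higher and 15.2% lower in DMSO, and 19.0% and 19.3% in olaparib. UBA7 and HERC6 passed the filter only through knockdown libraries, so their rise was a condition of being tested, and 3 of the other 5 rose. HERC5, the main human ligase for ISG15, went from 0.696, 1.05 and 0.713 CPM in control DMSO cells to 6.35, 6.36 and 6.46 CPM after knockdown (log2 fold change 2.94, SE 0.22, adjusted p = 7.05e-09), and in olaparib the log2 fold change was 2.31 (adjusted p = 1.91e-08). UBA7, the activating enzyme, held 0.696, 0.467 and 0.535 CPM in control DMSO libraries and 1.88, 1.76 and 1.20 CPM after knockdown. UBE2L6, the conjugating enzyme, rose on the log2 scale by 0.58 (adjusted p = 4.49e-05) and by 0.61 (adjusted p = 9.83e-06). USP18, which removes ISG15 and also dampens receptor signalling, rose by 0.54 (adjusted p = 0.0337) and 0.63 (adjusted p = 0.0175). HERC6, a HERC5 relative, had 0, 2 and 6 counts in the control libraries with DMSO and 17, 24 and 55 in the knockdown libraries. The ligases TRIM25 and ARIH1 fell by 0.32 (adjusted p = 8.71e-05) and by 0.17 (adjusted p = 0.0280) on the log2 scale in DMSO. When each library was left out in turn, an alternative added after the values had been seen, the list gave 4 to 5 genes higher in both comparisons. Only 1 was called lower in DMSO without the first or the second control library or the first or the second knockdown library of that treatment.

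IFITM3 (Entrez gene 10410), which blocks the fusion of viruses with endosomal membranes, was the most abundant of the 10. It rose from 228, 219 and 246 CPM in control DMSO cells to 417, 411 and 378 CPM after knockdown, and from 308, 328 and 310 CPM to 479, 479 and 449 CPM in olaparib. The groups did not overlap. Knockdown raised it 1.74-fold in DMSO (log2 fold change 0.80, SE 0.05, adjusted p = 1.14e-09) and 1.49-fold in olaparib (0.57, SE 0.05, adjusted p = 7.18e-08). IFITM1 (Entrez gene 8519), a relative placed mainly at the cell surface, stood at 1.04, 1.40 and 1.60 CPM in control DMSO cells. After knockdown it reached 4.75, 3.87 and 3.85 CPM. With olaparib its control libraries held 4.82, 3.75 and 4.35 CPM and its knockdown libraries 12.7, 15.0 and 14.2 CPM. IFITM1 thus had a low group, 2 middle groups that overlapped and a high group. Its log2 fold change with knockdown was 1.58 (SE 0.18, adjusted p = 2.00e-06) in DMSO and 1.71 (SE 0.12, adjusted p = 2.12e-09) in olaparib.

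IFITM2 (Entrez gene 10581), the third family member on chromosome 11, had 54 counts over all 12 libraries and stayed below the filter. Its control libraries held 1, 1 and 2 counts with DMSO and 1, 1 and 4 with olaparib, and its knockdown libraries 1, 6 and 8 counts with DMSO and 4, 21 and 4 with olaparib. With no filter its log2 fold change after knockdown was 1.42 (adjusted p = 0.249) in DMSO and 1.74 (adjusted p = 0.0375) in olaparib. The 3 genes resemble each other: 32.9% of the distinct 50-base stretches in IFITM1 transcripts, 35.3% in IFITM2 and 16.0% in IFITM3 also occur in other genes of the GENCODE v29 transcripts, while the share was 0% for the other 7 effectors. How the authors counted shared reads is not given in the sources used here, so the split of counts between the IFITM genes is uncertain. With the 3 added into 1 row, the sum rose with knockdown by 0.81 in DMSO and by 0.60 in olaparib on the log2 scale. IFITM3 held 86604 counts over all 12 libraries and IFITM1 1570. The sum therefore follows IFITM3 and cannot show how reads were split between the genes.

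BST2 (Entrez gene 684), also called tetherin, holds budding virus particles at the cell surface. It had 5, 7 and 5 counts in control libraries with DMSO and 26, 36 and 37 in knockdown libraries, or 0.348, 0.408 and 0.297 CPM against 1.82, 1.76 and 1.27 CPM. In olaparib the control libraries held 6, 6 and 14 counts and the knockdown libraries 27, 75 and 30, or 0.386, 0.402 and 0.634 CPM against 1.67, 1.88 and 2.02 CPM. The groups did not overlap. With 274 counts in all, the rise of 4.39-fold in DMSO had a 95% interval from 2.82 to 6.83 (log2 fold change 2.13, adjusted p = 2.28e-05), and that of 3.74-fold in olaparib one from 2.55 to 5.48 (1.90, adjusted p = 1.26e-05). BST2 passed the filter only through its knockdown libraries. These values therefore describe a rise that was a condition of being tested.

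IFI44 (Entrez gene 10561), a cytoplasmic antiviral protein, showed the largest fold change of the 8 tested effectors. Control cells with DMSO held 0.975, 1.34 and 1.25 CPM and knockdown cells 14.2, 9.88 and 11.7 CPM. With olaparib the control libraries stood at 0.836, 0.268 and 1.31 CPM and the knockdown libraries at 6.67, 6.16 and 5.86 CPM. The lowest knockdown library, at 5.86 CPM, lay above the highest control library, at 1.34 CPM. The rise was 9.79-fold in DMSO (log2 fold change 3.29, SE 0.23, adjusted p = 1.18e-08) and 7.12-fold in olaparib (2.83, SE 0.26, adjusted p = 2.42e-07). IFI44L, its neighbour and relative, did not pass in DMSO (log2 fold change 0.67, adjusted p = 0.122) or in olaparib (0.05, adjusted p = 0.915).

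IFI6 (Entrez gene 2537) and IFI27 belong to one family of small membrane proteins. IFI6, known for protecting cells from apoptosis and restricting some viruses, held 9.33, 14.3 and 12.1 CPM in control DMSO cells and 15.8, 17.8 and 14.8 CPM after knockdown. With olaparib it held 14.8, 17.3 and 14.6 CPM in control cells and 27.8, 22.1 and 18.0 CPM in knockdown cells. The groups did not overlap in either comparison, but the libraries within a group differed widely. The log2 fold change was 0.43 (SE 0.17, adjusted p = 0.0706) in DMSO and 0.54 (SE 0.16, adjusted p = 0.0139) in olaparib. The DMSO value passed with DESeq2 (adjusted p = 0.0246), with the likelihood-ratio test (0.0331) and with only the 2 groups fitted (0.0217), and the authors' deposited table gives it a false discovery rate of 0.0225. It also passed without the second control library with DMSO (0.58, adjusted p = 0.0275) and without the first (adjusted p = 0.0194) or the third (adjusted p = 0.0283) knockdown library with olaparib. The olaparib value no longer passed without the first (0.51, adjusted p = 0.0542) or the third (0.49, adjusted p = 0.0638) control library with olaparib. IFI27 (Entrez gene 3429) had 0 counts in all 12 libraries, which allows a level of up to between 0.0755 and 0.218 CPM per library, from 3 counts of each total, and up to 0.0127 CPM over all of them. Its RefSeq window holds 2 ISRE matches.

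IFI35 (Entrez gene 3430), a leucine zipper protein that binds the interferon-induced protein NMI, rose from 18.0, 21.1 and 20.0 CPM to 28.3, 26.7 and 28.1 CPM after knockdown in DMSO. In olaparib it went from 16.8, 14.3 and 14.8 CPM to 21.7, 20.3 and 19.9 CPM. The groups did not overlap, and the rise was 1.40-fold in DMSO (log2 fold change 0.49, SE 0.08, adjusted p = 9.60e-05) and 1.35-fold in olaparib (0.43, SE 0.08, adjusted p = 0.000397). NMI itself had a log2 fold change of 0.29 (adjusted p = 0.108) in DMSO and rose by 0.42 (adjusted p = 0.0145) in olaparib.

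SP110 (Entrez gene 3431), a nuclear body protein of the SP100 family, held 13.2, 14.3 and 12.2 CPM in control DMSO cells and 15.1, 13.7 and 15.4 CPM after knockdown, and these groups overlapped. With olaparib it went from 10.9, 13.3 and 12.7 CPM to 16.7, 16.7 and 16.6 CPM without overlap. The log2 fold change was 0.15 (SE 0.09, adjusted p = 0.225) in DMSO and 0.43 (SE 0.09, adjusted p = 0.000811) in olaparib. The difference between them, 0.28 (95% interval from 0.01 to 0.55), had an unadjusted p of 0.0412 in edgeR and did not pass over all genes (adjusted p = 0.201). In GENCODE v29, exons of SP110 overlap SP140 and AC009950.1 on the opposite strand, those of IFITM3 overlap AC136475.5 and those of ISG15 the pseudogene AL645608.3. Whether the counts were made by strand is not given in the sources used here, so reads from these partners cannot be told apart. The SP140 row itself held 0 to 5 counts per library. Exons of IFITM1 and IFITM2 overlap on the same strand, which counting by strand would not separate.

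**Figure D3:**
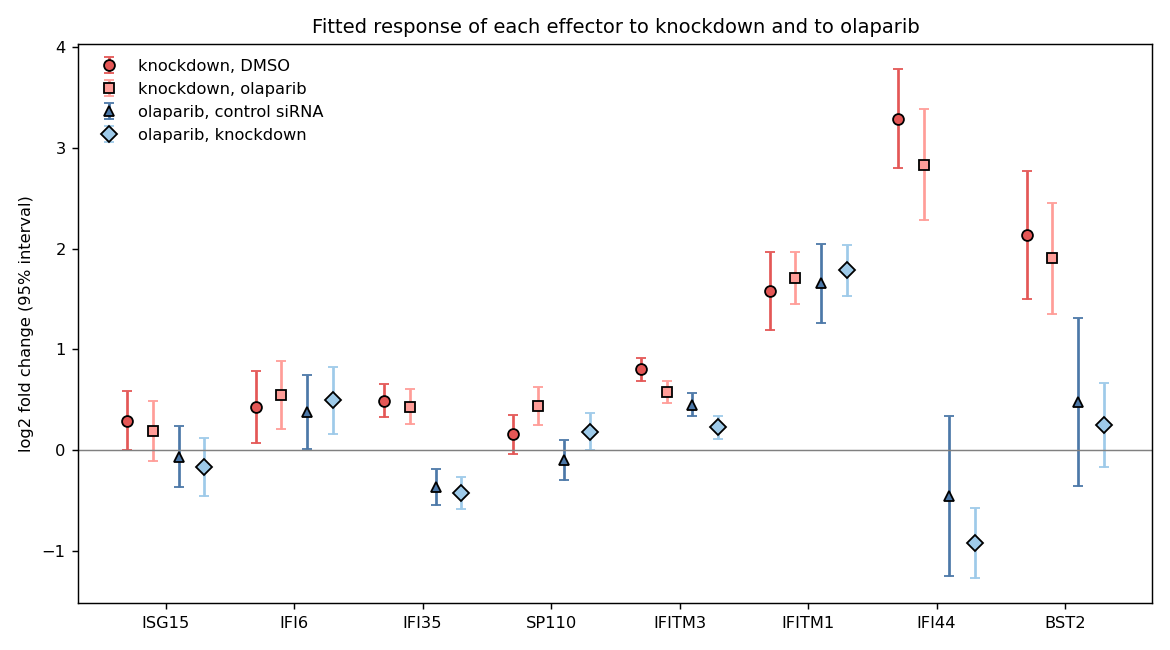
Fitted log2 fold change of each tested effector (points) with its 95% interval (bars) for knockdown against control in DMSO and in olaparib (red) and for olaparib against DMSO in control and knockdown cells (blue); the line marks no change. IFITM1 lies between 1.58 and 1.79 in all 4 comparisons, the intervals of IFI44 and BST2 lie above 0 for knockdown but not for olaparib, and ISG15 stays between -0.17 and 0.29. BST2 passed the filter only through its knockdown libraries.

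ISG15 was known from earlier results of these data to move little when it was taken as a reference, so the ratios below describe the distance to it. Their p-values come from the same libraries as the calls above and are not separate support for a rise. Each count was divided by the ISG15 count of the same library. The difference between knockdown and control was averaged over DMSO and olaparib. For each gene 1 exact permutation test, two-sided, was made of this average, with labels permuted within each treatment. The 400 arrangements allow a smallest p of 0.005, and 7 ratios were compared, BST2 included. The ratio to ISG15 rose by 3.01 on the log2 scale for IFI44, by 1.44 for IFITM1 and by 0.47 for IFITM3, each with the smallest exact p of 0.005 (0.00875 after Benjamini-Hochberg adjustment over the 7). In these 3 genes every knockdown library lay above every control library of the same treatment. The share of all tested genes whose ratio separates in this way is not given. For BST2 the ratio was 1.80 higher, which is given as a description because its rise was a condition of being tested. IFI6 (0.27, exact p = 0.04, adjusted 0.0467) and IFI35 (0.25, exact p = 0.03, adjusted 0.042) passed narrowly. SP110 did not (0.08, exact p = 0.585). With each library left out in turn, IFI44, IFITM1 and IFITM3 passed in all 12 cases, while the adjusted exact p ran from 0.014 to 0.128 for IFI6 and from 0.014 to 0.112 for IFI35. Without the third knockdown library with olaparib the ratios of IFI6 (0.26, adjusted exact p = 0.07) and IFI35 (0.17, adjusted exact p = 0.07) did not pass. Against the summed IFITM count in place of ISG15, IFI6 (-0.21), IFI35 (-0.24) and SP110 (-0.40) turned negative.

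With olaparib, effectors were called in both directions. In control cells IFITM1 and IFITM3 rose and IFI35 fell. In knockdown cells IFITM1, IFITM3 and IFI6 rose and IFI44 and IFI35 fell. Among all tested genes, 46.8% were called with olaparib in control cells, 23.6% higher and 23.2% lower, and 48.0% in knockdown cells, 24.1% higher and 23.9% lower, so 2 and 3 rises of 8 are near the share of all genes. These comparisons use the same libraries as the knockdown comparisons above, and the values are set side by side.

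IFITM1 rose 3.15-fold with olaparib in control cells (log2 fold change 1.66, SE 0.19, adjusted p = 8.79e-07) and 3.45-fold in knockdown cells (1.79, SE 0.12, adjusted p = 1.25e-09). Knockdown and olaparib together gave a mean 10.4 times that of control DMSO cells, where knockdown alone gave 3.08 times and olaparib alone 3.19 times. The interaction, which compares the olaparib response of knockdown cells with that of control cells, was 0.13 on the log2 scale (95% interval from -0.38 to 0.63, adjusted p = 0.789). IFITM3 rose by 0.45 in control cells (SE 0.05, adjusted p = 1.79e-06) and by 0.22 in knockdown cells (SE 0.05, adjusted p = 0.00190). Its interaction was -0.23 (95% interval from -0.38 to -0.07, unadjusted p = 0.00727, adjusted p = 0.0831). It passed with no filter on low counts (adjusted p = 0.0453), without the third control library with DMSO (-0.28, adjusted p = 0.0430) and without the third knockdown library with DMSO (-0.27, adjusted p = 0.0338). With the 3 IFITM genes in 1 row the interaction was -0.21 (adjusted p = 0.104).

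IFI44 had a log2 fold change of -0.92 with olaparib in knockdown cells (SE 0.16, adjusted p = 0.000231), a level 1.89-fold lower. In control cells its value was -0.46 (SE 0.38, adjusted p = 0.332), where 4 to 29 counts per library left an interval on the fold from 0.418 to 1.26. Without the third control library with olaparib it was called lower there (-1.10, adjusted p = 0.0427). IFI35 fell by 0.37 in control cells (adjusted p = 0.00157) and by 0.43 in knockdown cells (adjusted p = 0.000171) on the log2 scale. Its mean with knockdown and olaparib together, 20.6 ± 0.936 CPM (SD, n = 3), was 1.05 times that of control DMSO cells, 19.7 ± 1.59 CPM.

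IFI6 rose with olaparib in knockdown cells (0.49, SE 0.15, adjusted p = 0.0171) and had a value of 0.37 (SE 0.17, adjusted p = 0.0874) in control cells. The first call was lost without the third knockdown library with DMSO (0.42, adjusted p = 0.0747). The second value passed with DESeq2 (adjusted p = 0.0366), with the likelihood-ratio test (0.0486), with only the 2 groups fitted (0.00741), without the second control library with DMSO (0.53, adjusted p = 0.0313) and without the first (adjusted p = 0.0293) or the third (adjusted p = 0.0405) knockdown library with olaparib. BST2 had olaparib log2 fold changes of 0.48 (adjusted p = 0.370) in control cells and 0.25 (adjusted p = 0.326) in knockdown cells. SP110 had values of -0.10 (adjusted p = 0.401) and 0.18 (adjusted p = 0.0942), and ISG15 of -0.07 (adjusted p = 0.719) and -0.17 (adjusted p = 0.303). The interaction was called for 0 of the 8 tested effectors in edgeR and DESeq2, and for 5.69% of all genes in edgeR, 2.84% with a positive and 2.85% with a negative difference. At an unadjusted p under 0.05 it reached 2 of the 8, IFITM3 and SP110. The 5.69% is a share at the adjusted threshold and cannot be set beside these 2. The share of all genes at an unadjusted p under 0.05 is not given.

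Levels between genes are compared as RPKM (CPM divided by transcript length in kilobases), with the length in the authors' deposited table. In control DMSO cells the order was IFITM3 at 346 ± 21.0 RPKM, ISG15 at 49.3 ± 2.89, IFI35 at 15.7 ± 1.27, IFI6 at 13.8 ± 2.89, SP110 at 4.26 ± 0.330, IFITM1 at 1.88 ± 0.395, IFI44 at 0.687 ± 0.110 and BST2 at 0.345 ± 0.0546 RPKM (SD, n = 3). The libraries of IFI35 and IFI6 overlapped, and other neighbours in this order did not. In knockdown cells with olaparib IFITM3 stood at 702 ± 25.9 RPKM and ISG15 at 53.3 ± 11.4 RPKM, still first and second. IFI6 at 26.3 ± 5.76 RPKM and IFITM1 at 19.5 ± 1.65 RPKM followed and overlapped each other. IFI35 at 16.5 ± 0.749, SP110 at 5.37 ± 0.0278, IFI44 at 3.60 ± 0.236 and BST2 at 1.82 ± 0.175 RPKM came after them. IFITM1 was thus below SP110 in control DMSO cells and above it in the other 3 groups.

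Across the 12 libraries, the genes with the most similar pattern were ranked by Pearson correlation of log2 CPM among 10326 genes. The libraries fall into 4 groups, so these values describe group patterns and carry no test. The nearest to ISG15 were SLC19A1 (r = 0.97), GPC1 and GALK1. IFI44 was nearest to FZD4 (r = 0.98), the RNA sensor gene IFIH1 and VSIR, and BST2 to BAIAP2L1 (r = 0.98), CCL2 and IFIT3. IFITM1 was nearest to NUP160 (r = 0.98), ADAMTS15 and ZFP82, and IFITM3 to PTK7 (r = 0.99), THBS1 and NXN. The nearest gene was ANOS1 for IFI35 (r = 0.98), CPQ for IFI6 (r = 0.92) and RASA2 for SP110 (r = 0.93). Of these 24 nearest genes, IFIH1 and IFIT3 stood in the interferon lists used here.

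**Figure D4:**
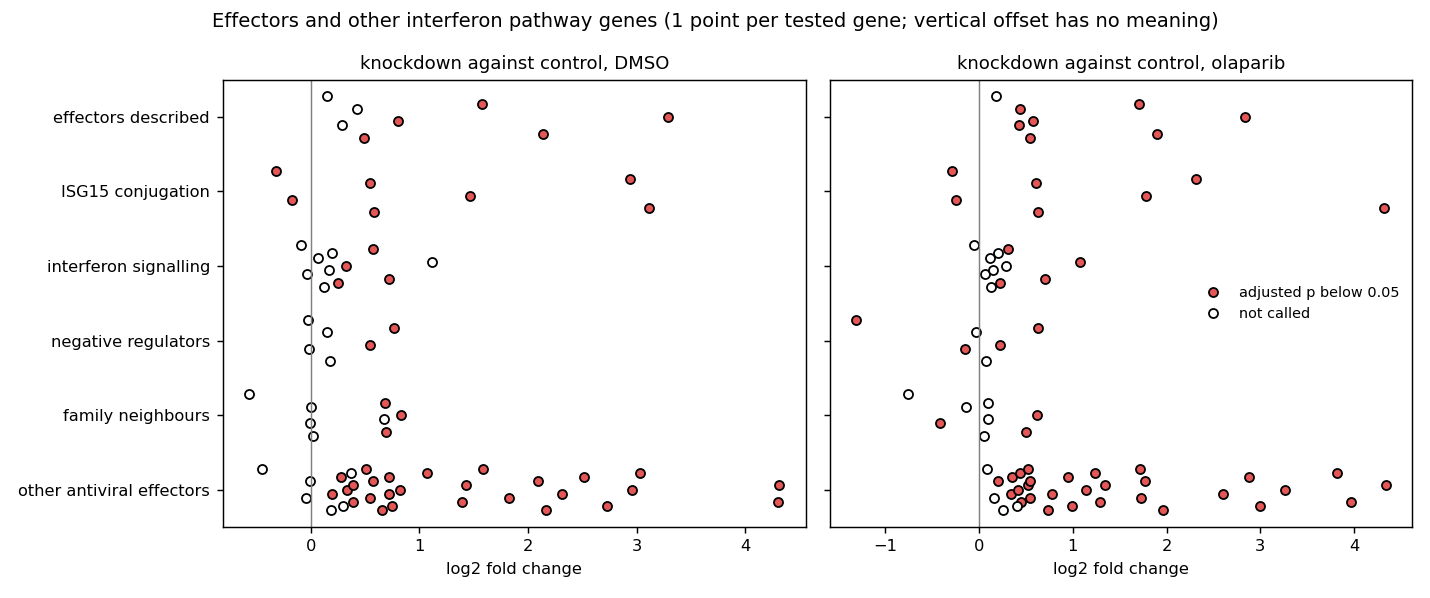
Log2 fold change after knockdown in DMSO (left) and in olaparib (right) of each tested effector and of the other interferon genes by list; 1 point is 1 gene, filled where the adjusted p is below 0.05. In the list of other antiviral effectors 27 of 33 tested genes rose in DMSO and 29 of 33 in olaparib, with none called lower; 5 of them passed the filter only through knockdown libraries.

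The rest of the pathway was read through lists whose genes were chosen by role. Beside every knockdown count below stand the shares of all tested genes. They were 14.7% higher and 15.2% lower in DMSO, and 19.0% higher and 19.3% lower in olaparib. Of 9 interferon genes, 0 passed the filter: IFNA1, IFNA2, IFNB1, IFNG, IFNK and IFNL2 had 0 counts in all 12 libraries, IFNL3 had 1, IFNL1 4 and IFNE 41. Together they held 1 to 8 counts per library in every group. Of the receptor and signalling genes, 4 of 11 rose after knockdown in DMSO and 4 in olaparib, with 0 lower. IRF1, an activator of interferon genes, rose by 0.72 (adjusted p = 1.44e-07) and by 1.07 (adjusted p = 5.77e-10). The receptor gene IFNGR1 rose by 0.58 (adjusted p = 4.08e-07) and by 0.70 (adjusted p = 1.70e-08). The interferon receptor genes IFNAR1 (log2 fold changes 0.06 and 0.20) and IFNAR2 (-0.09 and 0.15) did not pass in either. IRF3, a factor downstream of nucleic acid sensors, rose by 0.33 (adjusted p = 0.000404) in DMSO and had 0.12 (adjusted p = 0.150) in olaparib. In olaparib STAT2 (0.31, adjusted p = 0.0266) and the kinase gene JAK2 (0.22, adjusted p = 0.0413) rose, which had values of 0.19 (adjusted p = 0.212) and 0.12 (adjusted p = 0.319) in DMSO. The kinase gene TYK2 rose by 0.25 (adjusted p = 0.0115) in DMSO and had 0.13 (adjusted p = 0.170) in olaparib. The olaparib count was 2 without the second or the third control library or the second knockdown library of that treatment.

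Among 6 negative regulators, USP18 and SOCS1 rose in DMSO. In olaparib USP18 and SOCS3 rose, and SOCS1 and PTPN1 fell. The DMSO count was 0 without the second control library and 1 without the third control or the second knockdown library of that treatment. In olaparib the count of rises was 1 without any 1 of the 3 control libraries or without the first knockdown library. Of the family neighbours, 3 of 8 tested rose in DMSO: IFI30, a lysosomal thiol reductase (0.83, adjusted p = 1.28e-06), IFITM10 (0.69, adjusted p = 0.0240) and SP140L (0.68, adjusted p = 0.0110). IFI30 (0.50, adjusted p = 0.000216) and SP140L (0.62, adjusted p = 0.0107) also rose in olaparib, and ISG20 fell by 0.42 (adjusted p = 0.00273).

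Some of the other antiviral effectors had larger fitted log2 fold changes than the 3.29 of IFI44. OASL, a relative of the RNA-sensing OAS enzymes, went from 0.766, 0.992 and 0.892 CPM in control DMSO cells to 18.3, 17.8 and 17.0 CPM after knockdown, a fitted log2 fold change of 4.30 (SE 0.13). OAS2 had 1 count in each of the 3 control libraries with DMSO and 15, 30 and 42 in the knockdown libraries. SAMD9L had a fitted log2 fold change of 3.03, below that of IFI44. These 3 genes, with XAF1 and PARP10, passed the filter only through knockdown libraries, so their rise was a condition of being tested. Of the other 28 tested, 22 rose in DMSO and 24 in olaparib, with 0 lower. IFIT2, which passed on control libraries alone, rose by 2.96 (adjusted p = 4.88e-13) on the log2 scale in DMSO. EIF2AK2 (-0.04), TDRD7 (-0.01) and GBP1 (-0.45) were among the 6 of 33 that did not pass in DMSO. The count of 27 stayed between 27 and 28 when each library was left out, and that of 29 in olaparib between 28 and 30. RefSeq gave a window for 30 of the 40 listed genes, and 21 of these genes had ISRE letters in at least 1 window. In the ISG15 conjugation list it was 1 of 5 genes. These are counts of genes, while the 3.57% above is a share of windows. With olaparib, 3 of the 33 other antiviral effectors rose and 10 fell in control cells, and 5 rose and 12 fell in knockdown cells. Among all tested genes, 23.6% were called higher and 23.2% lower in control cells, and 24.1% and 23.9% in knockdown cells. Without the second knockdown library with olaparib, 3 rose and 11 fell in knockdown cells.

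Immune cells are a known source of interferon-stimulated RNA. The 7 immune markers summed to between 1.31 and 2.65 CPM in control DMSO cells and between 1.82 and 2.82 CPM in knockdown DMSO cells, which overlapped. CD14, with 401 counts in all, was the only one of the 7 that passed the filter. Its log2 fold change was 0.40 (adjusted p = 0.260) in DMSO and 0.67, not called, in olaparib. In olaparib the immune sums were 1.09 to 1.54 CPM in control cells and 2.03 to 2.22 CPM in knockdown cells, without overlap. The part of these low counts in the results was not tested.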

How the data were processed

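RNA sequencing libraries of BT549 cells, 12 in all, were analysed from 2 tables. The first, deposited by the authors, holds raw counts with a symbol, length and Entrez number for each gene, per the file headers. The second, also by the authors, gives deposited log2 fold changes with p-value columns adjusted to false discovery rates for 12106 genes, per the file headers. The submitters' processing notes name bcl2fastq, version 2.20.0.422, for base calls. The aligner, counting tool, genome build and strand setting are not given in the sources used here. Rows without a symbol (51) held 0.00223% to 0.00311% of a library's counts and stayed out of totals and tests. Genes above 1 CPM of the unscaled library total in at least 3 libraries were tested (12118). TMM factors and a robust quasi-likelihood fit in edgeR 4.0.16 (R 4.3.3) covered all 12 libraries, with 8 residual degrees of freedom and Benjamini-Hochberg adjustment per comparison over all tested genes. The biological coefficient of variation was 6.10%. Library totals of 13762783 to 39714918 counts set the precision, and the limit from 0 counts covers counting error only. Ratios to ISG15 used 0.5 added counts and an exact permutation test in numpy 2.4.6. Replicates differed by more than sampling noise. Alternatives were RLE and upper-quartile scaling, no filter or 5 CPM, DESeq2 1.42.0, a likelihood-ratio test, 2-group fits, a replicate block, thinning, summed IFITM rows and each library left out.

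Some genes of the lists are not reported here and were left out of the list counts. The genes and lists were chosen with earlier results of these data known. The named genes were all 10 effectors, FOSL1 and JUN, the 3 nearest genes by correlation for each tested effector, and up to 4 genes per list and direction with the largest called change in DMSO. LGALS3BP, STAT2, JAK2, XAF1, PARP10, IFNAR1, IFNAR2, IFI44L, NMI, EIF2AK2, TDRD7, GBP1, SOCS3, PTPN1 and ISG20 fall outside this rule and were named after their values were seen.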

Additional observations from a re-analysis of the deposited data

Results flagged for a closer look

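The interaction term in edgeR tests whether the olaparib response differed between knockdown and control cells. It was called for 0 of the 8 tested effectors, and for 0 with DESeq2. At an unadjusted p under 0.05 it reached 2 of them, a threshold at which the share of all genes is not given. It was called for 4 other interferon pathway genes. They were 1 of 11 signalling genes, 1 of 6 negative regulators, and 1 positive and 1 negative among 33 other antiviral effectors. In the conjugation list 0 of 7 were called, and 0 of 8 family neighbours. Among all tested genes 5.69% were called, and the 4 genes from these lists are near that share. IFIT2, an RNA-binding antiviral protein, had an interaction of 1.00 on the log2 scale (SE 0.17, adjusted p = 0.00279), from -0.31 with olaparib in control cells to 0.69 in knockdown cells. SOCS1, an inhibitor of JAK kinases, had -2.08 (SE 0.39, adjusted p = 0.00499): it stood at 1.94 ± 0.716 CPM in knockdown cells with DMSO and 0.615 ± 0.184 CPM with olaparib (SD, n = 3), while control cells held 1.20 ± 0.0825 and 1.63 ± 0.193 CPM. Both passed with each of the 12 libraries left out in turn.

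The interaction of IRF1 was 0.35 (SE 0.10, adjusted p = 0.0403), from -0.43 with olaparib in control cells to -0.08 in knockdown cells. It passed in 4 of the 12 fits with a library left out, and its adjusted p reached 0.136 without the first control library with olaparib. The other 7 losses came without the first or the third control library with DMSO (0.0823 and 0.102), the second or the third with olaparib (0.0602 and 0.0536), the first or second knockdown library with DMSO (0.0601 and 0.0746) and the second with olaparib (0.108). LGALS3BP, a secreted glycoprotein, had an interaction of -0.59 (SE 0.14, adjusted p = 0.0207), from 0.25 to -0.34. It was lost without the first (adjusted p = 0.0547) or second (0.0653) control library with olaparib and without the second knockdown library with DMSO (0.0529).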

How the results depend on the processing

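Of the fold changes of single effectors under the alternatives, 839 kept direction and side of the threshold, 20 gained a call and 3 lost one. With IFITM1, IFITM2 and IFITM3 in 1 row, 1 effector in place of 2 rose with olaparib in control cells, since the row replaces both genes. With no filter, 1 effector (IFITM3) had a negative interaction. With each library left out, effectors called lower with olaparib in control cells ran from 1 to 2, and those with a negative interaction from 0 to 1. Ratios differing from ISG15, BST2 included, ran from 4 to 6. All genes with an interaction ran from 305 to 1129 (689 with all libraries). Against the summed IFITM count in place of ISG15, the ratios of IFI6 (-0.21, adjusted exact p = 0.135), IFI35 (-0.24, 0.0125) and SP110 (-0.40, 0.0125) turned negative. That summed count itself rose with knockdown by 0.81 in DMSO and 0.60 in olaparib on the log2 scale. Scaling moved the median gene by at most 0.05 log2. With the replicate block, 3505 and 4524 genes were called for knockdown in DMSO and olaparib, 5572 and 5694 for olaparib in control and knockdown cells and 609 for the interaction, and 5 and 7 effectors rose with knockdown. The replicate numbers do not pair libraries: 2 of 18 same-numbered pairs had deviations correlated above 0.1 (range -0.27 to 0.20). Low counts limit BST2, IFITM2 and IFI44 in control cells.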
